A study of Mus musculus with 8 samples.

Results

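The genes described here encode the proteins of the cytosolic ribosome. They were chosen by name on the array, as every non-control probe whose gene name is Rpl or Rps followed by a digit, or Rplp0, Rplp1, Rplp2 or Rpsa, without the Rps6k kinases and without names that contain -ps. The rule took 191 of 55681 probes, and these name 86 of the 34741 genes or annotated features. They comprise 43 proteins of the large subunit, 31 of the small subunit including Rpsa, the 3 stalk proteins, 8 paralogs of other members, and Rps19bp1, which is a nucleolar protein that binds Rps19 and not a part of the ribosome. For 83 genes at least 1 probe lay above background, and the brightest such probe of each gene was above background on all 8 arrays. The other 3 are the paralogs Rpl10l, Rpl39l and Rps4y2. Their probes were well above background on 0, 0 and 1 of the 8 arrays, so no change is given for them.

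The arrays measured total RNA of the mouse pre-B line wk3, which is SLP-65-/- in every group and so lacks the adaptor that passes on the pre-B cell receptor signal. The cells had been infected with a retroviral vector and selected with puromycin. The vector carried either a scrambled sponge, the control, or a sponge that binds miR-322, miR-195, miR-497, miR-16, miR-15b and miR-15a, the miR-15 family, and the cells grew in excessive IL-7 or stayed 36 h without it. Each of the 4 groups held 2 arrays, which the study describes as separate experiments on independently generated clones, so p-values rest on the spread within pairs of arrays and 1 line. The microRNAs themselves were not analysed here.

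A ribosome needs nearly all of these proteins in equal number, so their messages are made in similar proportions in most cells. Their mRNAs start with a cytosine and a run of pyrimidines, the 5′ terminal oligopyrimidine or TOP sequence, through which the kinase mTORC1 and the binding protein Larp1 control translation and stability. IL-7 drives growth of early B cell precursors, and growing cells spend a large part of their transcription on ribosomes.

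The annotated starts of the genes show the TOP sequence in part. RefSeq promoter sequences (GRCm38.p6, 250 bases before to 50 after the annotated start) were matched to 62 of the members that encode ribosomal proteins, with 74 promoters. A start of C followed by 4 bases C or T at the annotated base was present in 13 of 74 promoters (17.6%), in 0 of 73 promoters of mitochondrial ribosomal proteins and in 2.51% of all 32851 promoters. The windows below hold the last 15 bases before the annotated start and the first 15 of the transcript, with the pyrimidine run that begins at the start in capitals. They are shown first for Rplp2 and Rps6, which have such a start and are followed throughout. Next are the 4 members with 1 promoter that fell most after IL-7 withdrawal by their brightest probe (Rps2, Rpl36a, Rpl39, Rpl12). Last are the 4 that fell least (Rps27, Rpl38, Rps3a, Rpl9). Of these, Rps27 and Rpl38 have such a start too, and Rps27 is also followed throughout.
Rplp2 (chr7:141447636-141447665, plus strand): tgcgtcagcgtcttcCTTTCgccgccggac
Rps6 (chr4:86857353-86857382, minus strand): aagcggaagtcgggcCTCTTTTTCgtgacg
Rps2 (chr17:24720048-24720077, plus strand): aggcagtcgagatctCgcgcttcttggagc
Rpl36a (chrX:134585639-134585668, plus strand): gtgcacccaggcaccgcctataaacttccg
Rpl39 (chrX:37085208-37085237, minus strand): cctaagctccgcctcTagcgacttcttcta
Rpl12 (chr2:32961697-32961726, plus strand): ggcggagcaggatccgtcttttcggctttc
Rps27 (chr3:90213634-90213663, minus strand): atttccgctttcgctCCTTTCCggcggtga
Rpl38 (chr11:114668565-114668594, plus strand): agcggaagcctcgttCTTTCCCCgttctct
Rps3a (chr3:86142654-86142683, minus strand): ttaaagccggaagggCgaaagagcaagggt
Rpl9 (chr5:65391417-65391446, minus strand): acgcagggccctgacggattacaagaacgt

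Rps27 and Rpl38, among the least changed, begin with runs of 7 and 8 pyrimidines, while the windows of Rps2 and Rpl39 have a run of 1 base and those of Rpl36a and Rpl12 have none at the annotated base. The same choice left 49 ribosomal protein members with 1 promoter, without paralogs and chromosome 18. Among them, the 13 whose run was 5 bases or longer had a median log2 change on withdrawal of -0.57 in scrambled and -0.68 in sponge cells. The 36 others had -0.48 and -0.62. These are descriptions, since the annotated base need not be the base the cells use. Other motifs were searched on both strands of the whole 300 bases. CCGGAAG or CTTCCGG, the core of ETS factor sites, was in 35.1% of the member promoters, 32.9% of the mitochondrial ribosomal protein promoters and 8.86% of all promoters. AAGATGGC on either strand, the core of YY1 sites, was in 10.8%, 16.4% and 2.75%, CACGTG, the E-box, in 10.8%, 9.59% and 7.15%, and TATAAA or TTTATA in 9.46%, 6.85% and 13.6%.

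The identity of the cells and the level of the arrays were checked first. All 10 pre-B cell markers fixed for the check, among them Cd79a, Vpreb1 and Igll1, were above background on all 8 arrays. Of the markers of other cells, 3 of 6 for T cells, 4 of 6 for myeloid cells, 1 of 5 for erythroid cells, 1 of 5 for fibroblasts and 3 of 4 for plasma cells were above background on all 8, while Cd3g, Alas2, Col1a1, Col3a1, Pdgfra and Pdgfrb were among those above it on 0. All 8 arrays shared 1 slide, with the 4 arrays with IL-7 in slide column 1 and the 4 without in column 2, and scrambled arrays in rows 1 and 2 and sponge arrays in rows 3 and 4. Slide position therefore cannot be told apart from IL-7 or the construct. In bulk RNA, fewer cells and less RNA per cell cannot be told apart either. Values are log2 intensities minus the array's 75th percentile, with SE from the linear model and p-values from limma with Benjamini-Hochberg adjustment over the 21311 genes tested.

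After 36 h without IL-7 nearly all ribosomal protein genes were lower in scrambled sponge cells. Of the 83 measured members, 75 fell and 1 rose at an adjusted p under 0.05, against 27.7% of all genes tested that fell and 19.2% that rose. The median change of the members was -0.50 on the log2 scale, with the middle of the distribution between -0.67 and -0.38 (quartiles), and the median of all genes was -0.04 (quartiles -0.44 and 0.38). Genes of each part of the ribosome fell: 41 of 43 large subunit genes (median -0.49), 27 of 31 small subunit genes (median -0.51) and 3 of 3 stalk genes (median -0.74) passed the test. Rps7, Rpl38, Rpl36, Rps27, Rps14, Rps24 and Rps19bp1 did not. The arrays with and without IL-7 did not overlap for any measured member other than Rps27. The share of all genes without such overlap was not counted, so this is only a description of the members.

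**Figure D1:**
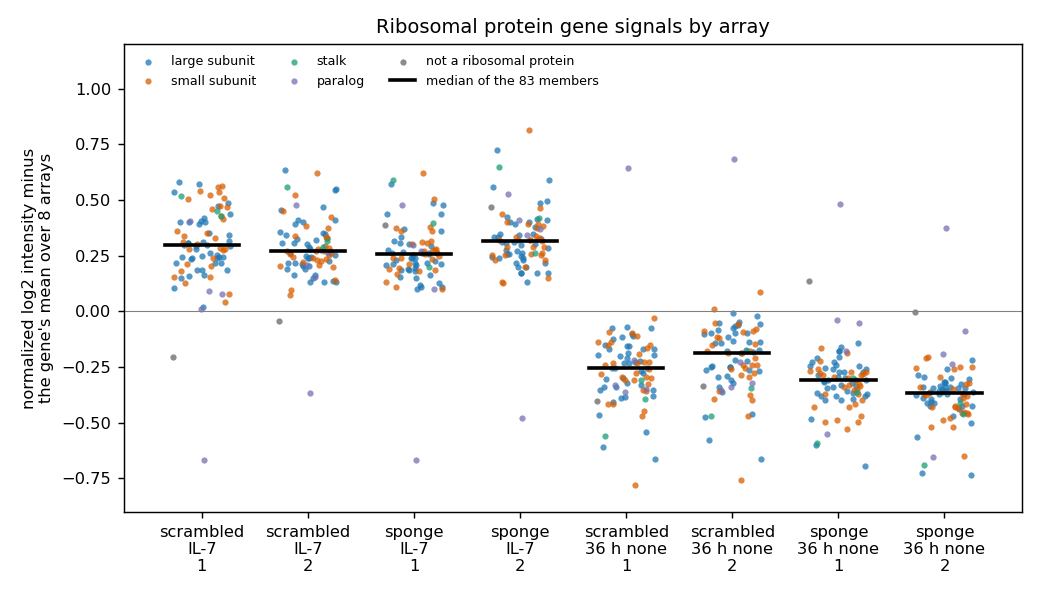
Normalized log2 intensity of each of the 83 measured members minus its own mean over the 8 arrays, by array, coloured by part of the ribosome. Black bars are the median of the members, which lie between 0.25 and 0.31 on the 4 arrays with IL-7 and between -0.37 and -0.19 on the 4 without. Rpl3l lies below 0 on all 4 arrays with IL-7 and above 0 on all 4 without.

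The sponge cells gave the same picture with other arrays. There 80 members fell and 1 rose, against 15.2% and 6.97% of all genes tested. The median change was -0.62 (quartiles -0.71 and -0.53), and that of all genes -0.08 (quartiles -0.31 and 0.16). All 43 large subunit genes, 30 of 31 small subunit genes and 3 of 3 stalk genes fell. Rps14 and the paralog Rpl7l1 did not pass the test. The arrays did not overlap for any of the 83 members, again without a share of all genes to set beside it. Called lower in both constructs were 74 members, and how many of all genes were lower in both was not counted. The count of 80 was 48 without sponge with IL-7 replicate 2 and 44 without sponge without IL-7 replicate 2.

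The median member deviated from its mean by 0.30 and 0.27 on the scrambled arrays with IL-7 and by -0.26 and -0.19 on those without. It deviated by 0.25 and 0.31 on the sponge arrays with IL-7 and by -0.31 and -0.37 on those without. The replicates of a group thus lay close together, while the groups with and without IL-7 were separate. The spread of the whole array moved with the same contrast: the 99th percentile of the log2 signal lay 7.66 to 7.72 above the 75th with IL-7 and 7.16 to 7.23 above it without. The members sit in that bright range, where the median member read 8.42 to 8.50 above the 75th percentile with IL-7 and 7.66 to 7.84 without. All genes tested are therefore not a background of like signal, and the part of this change in spread in the members' fall was not tested apart from the scalings given next. The brightest spike-in control lay 5.26 to 5.31 above the mean of the 7 spike-ins used with IL-7 and 5.12 to 5.26 without.

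**Figure D2:**
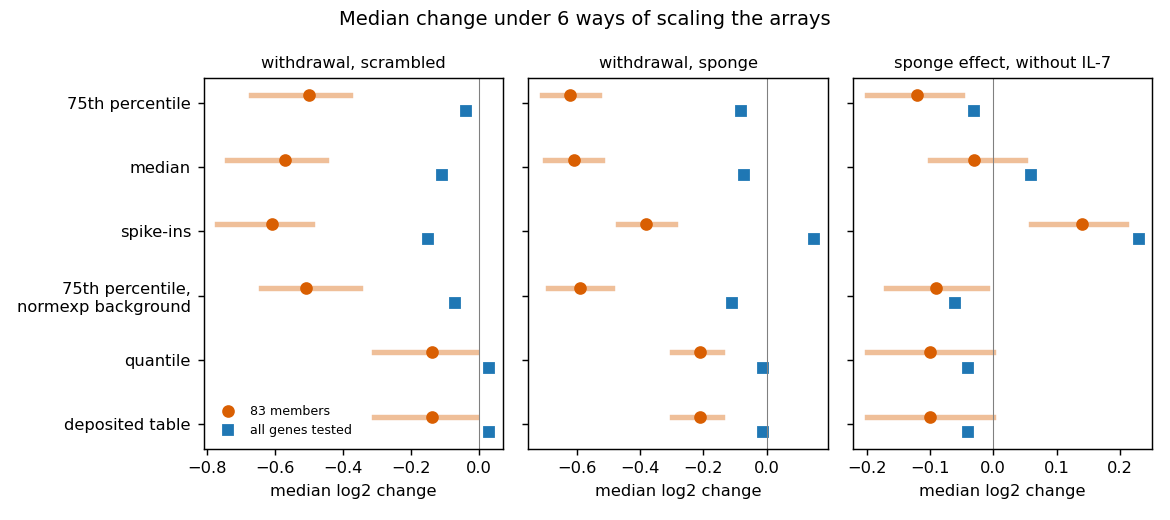
Median log2 change of the 83 members (circles, with the quartiles as pale bars) and of all 21311 genes tested (squares) under 6 ways of making the arrays comparable, for IL-7 withdrawal in either construct and for the sponge effect without IL-7. The members' median lies below that of all genes in every row and panel, and in the withdrawal panels the distance is smallest after quantile normalization and in the deposited table.

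The size of the fall depended on how the arrays were scaled. Quantile normalization gives all arrays the same distribution, and the deposited value table has that property. Both left 29 members called lower in scrambled cells (median -0.14, all genes 0.03) and 25 in sponge cells (median -0.21, all genes -0.01). Of the 21311 genes tested, quantile normalization called 4959 lower in scrambled and 1961 in sponge cells. Under quantile normalization 65 and 78 of the 83 members had a change below 0. Scaling on the spike-ins gave 77 called lower in scrambled cells (median -0.61) and 27 in sponge cells (median -0.38), where it moved the median of all genes to -0.15 and 0.15. It called 6612 and 860 of all genes lower. The distance from the median member to the median gene was -0.46 in scrambled and -0.53 in sponge cells with the 75th percentile and with the spike-ins, and -0.17 and -0.21 with quantile normalization. Called lower in both constructs under all 6 scalings were 16 members: Rpl3, Rpl10a, Rpl12, Rpl22l1, Rpl28, Rpl36a, Rpl39, Rplp1, Rplp2, Rps2, Rps6, Rps12, Rps18, Rps19, Rps21 and Rps26. How many of all genes were lower under all 6 was not counted. Of all calls over all genes, the share that was lower was 59.1% in scrambled and 68.5% in sponge cells with the 75th percentile, 48.6% and 48.5% after quantile normalization, and 69.8% and 24.9% with the spike-ins. For the sponge effect without IL-7 that share was 45.2% with the 75th percentile, 30.3% with median scaling and 14.1% with the spike-ins.

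The stalk proteins form the arm of the large subunit that recruits elongation factors. Rplp0, the base of the stalk, read 9.58 and 9.42 in scrambled and 9.33 and 9.39 in sponge cells with IL-7, and 8.82 and 8.95, then 8.83 and 8.72, without. It fell by 0.62 (SE 0.10, adjusted p = 0.00374) and 0.58 (SE 0.10, adjusted p = 0.0117), while its other 2 probes gave -0.81 and -0.77 in scrambled and -0.96 and -0.92 in sponge cells. Rplp1 fell most of the 3. Its values were 8.42 and 8.46 in scrambled and 8.49 and 8.55 in sponge cells with IL-7, against 7.34 and 7.43, then 7.31 and 7.21, without. The changes of Rplp1 were -1.05 (SE 0.08, adjusted p = 0.000363), a 2.07-fold fall, and -1.26 (SE 0.08, adjusted p = 0.00199), a 2.39-fold fall. Rplp2 had changes of -0.74 (adjusted p = 0.000947) and -0.83 (adjusted p = 0.00371). Rpl12, which binds at the base of the stalk, read 8.29 and 8.35 in scrambled and 8.24 and 8.30 in sponge cells with IL-7, and 7.45 and 7.63, then 7.11 and 7.07, without. Its changes were -0.77 (adjusted p = 0.0012) and -1.18 (SE 0.09, adjusted p = 0.00221), and its second probe gave -0.77 and -1.17.

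In the large subunit Rpl36a showed a large fall in both constructs. It read 7.19 and 7.24 in scrambled and 7.18 and 7.33 in sponge cells with IL-7, and between 5.88 and 6.03 on the 4 arrays without, far from any array with IL-7. That is a change of -1.20 (SE 0.09, adjusted p = 0.000351), a 2.30-fold fall, and of -1.31 (SE 0.09, adjusted p = 0.00203), a 2.48-fold fall. Its other 2 probes had smaller changes, -0.99 and -0.77 in scrambled and -1.25 and -0.93 in sponge cells. Rpl3, a core protein near the peptidyl transferase centre, fell by 1.15 in scrambled (SE 0.08, adjusted p = 0.000317) and by 0.90 in sponge cells (SE 0.08, adjusted p = 0.00297), and its second probe gave -0.90 and -0.84. Rpl39, a small protein of the exit tunnel, fell by 0.97 and 1.02 (SE 0.08 for both, adjusted p = 0.000478 and 0.00236), and its other 2 probes gave -0.86 and -1.41 in scrambled and -0.92 and -1.20 in sponge cells. Rpl5 and Rpl11 join the 5S RNA and can bind the p53 inhibitor Mdm2. Rpl5 had changes of -0.50 and -0.74 (adjusted p = 0.00542 and 0.00503) and Rpl11 of -0.30 and -0.49 (adjusted p = 0.0252 and 0.0106). Rpl32, often used as a reference gene, had -0.58 and -0.57 (adjusted p = 0.00218 and 0.00715), and Rpl13a, another such gene, had -0.31 and -0.48 (adjusted p = 0.0179 and 0.00972), with -0.63 and -0.56, then -0.64 and -0.71, at its dimmer probes. After quantile normalization Rpl13a was 0.12 higher in scrambled cells, which did not pass the test.

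In the small subunit Rps2, which lies at the mRNA entry of the subunit, had the largest fall of all members in scrambled cells by the brightest probe of each gene, though dimmer probes of Rpsa and Rpl39 fell further. Rps2 read 7.18 and 7.28 in scrambled and 7.28 and 7.47 in sponge cells with IL-7, and 5.88 and 5.90, then 6.13 and 6.14, without. The change was -1.35 (SE 0.09, adjusted p = 0.000301), a 2.55-fold fall, and -1.24 (SE 0.09, adjusted p = 0.00213), a 2.36-fold fall, and its second probe gave -1.32 and -1.22. Rps19, the gene most often mutated in Diamond-Blackfan anaemia, had -0.90 and -0.89 (SE 0.07, adjusted p = 0.000391 and 0.00231), and Rps21 had -0.84 and -1.05 (adjusted p = 0.00126 and 0.00357). Rps6, the substrate of the S6 kinases, had -0.65 and -0.71 (adjusted p = 0.00146 and 0.00461). Rpsa, also known as the laminin receptor, had -0.88 and -0.66 (adjusted p = 0.00166 and 0.0123) by its brightest probe. Its other 3 probes had larger changes, -1.32, -1.71 and -1.36 in scrambled and -1.13, -1.37 and -1.50 in sponge cells. Rps27a, made as a fusion to ubiquitin, had -0.42 and -0.60 (adjusted p = 0.00991 and 0.00787).

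Some members moved little. Rps27, which had the smallest change in scrambled cells, read 8.96 and 9.02 in scrambled cells with IL-7 and 8.85 and 8.97 without, so the arrays overlapped, with a change of -0.08 (SE 0.08, adjusted p = 0.439). In sponge cells it read 8.98 and 9.03 with IL-7 and 8.61 and 8.63 without, a fall of 0.38 (SE 0.08, adjusted p = 0.0217). Its 4 measured probes gave -0.18 to -0.07 in scrambled and -0.38 to -0.35 in sponge cells. The array annotation places its brightest probe on chromosome 9, while the promoter shown above is on chromosome 3. Whether this probe reads another copy was not tested. Rps14, the gene lost in the human 5q- syndrome, had changes of -0.26 (SE 0.11, adjusted p = 0.102) and -0.36 (SE 0.11, adjusted p = 0.0644), although its arrays did not overlap. After quantile normalization both genes had changes above 0 in scrambled cells, 0.19 for Rps27 and 0.04 for Rps14, and Rps14 had 0.03 in sponge cells. Both genes are bright, with mean signals of 8.88 for Rps27 and 9.19 for Rps14. Across the 77 members without paralogs and Rps19bp1, brighter genes fell less, with Spearman's rho of 0.33 in scrambled and 0.50 in sponge cells. Over all 83 members rho was 0.22 and 0.29. The part of signal level in these small changes was not tested.

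**Figure D3:**
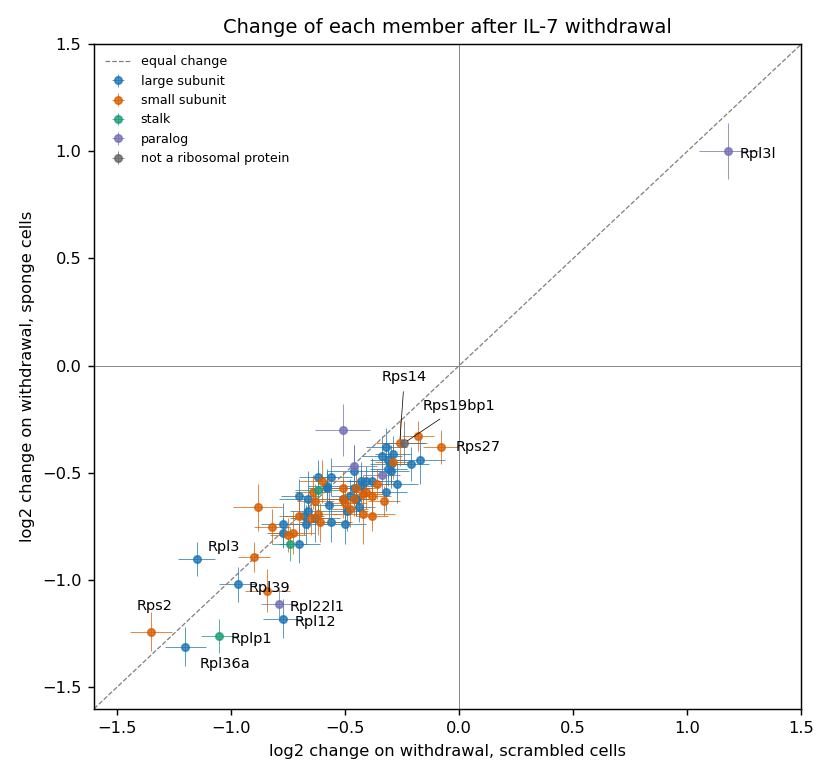
Log2 change of each of the 83 members after IL-7 withdrawal in scrambled cells (horizontal) and sponge cells (vertical), with bars of 1 SE from the linear model and a dashed line of equal change. All points other than Rpl3l lie below 0 on both axes, and Rps2, Rpl36a and Rplp1 lie beyond -1 on both.

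The members kept much of their order between the constructs, which share no array in these comparisons. Across the 83 members, Pearson's r of the 2 changes was 0.91 and Spearman's rho 0.82, and without the paralogs and Rps19bp1 (77 members) 0.86 and 0.82. The genes share the scaling of each array, so these values describe likeness only. By the brightest probe, a fall of at least 1 log2 unit was seen in 4 members in scrambled and 7 in sponge cells, and Rpl36a, Rplp1 and Rps2 were in both. How many of all genes fell as far was not counted.

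To see which members departed from the common fall, the median deviation of the members was subtracted from every array and the fit repeated over all genes. In scrambled cells 16 members then lay below and 12 above the median member, against 10.7% and 51.1% of all genes. In sponge cells 11 lay below and 7 above, against 1.31% and 62.5% of all genes. Below in both were 10 members, Rps2, Rpl36a, Rplp1, Rpl3, Rpl12, Rpl22l1, Rpl39, Rps19, Rps21 and Rplp2. Rps2 fell 0.84 and 0.61 further than the median member (log2), Rpl36a 0.70 and 0.68 further, and Rplp1 0.55 and 0.63 further. Above in both were 5, Rpl3l, Rps27, Rps24, Rpl19 and Rps19bp1. Rps27 lay 0.42 and 0.24 above the median member and Rps24 0.32 and 0.29. These places rest on the brightest probe of each gene. For Rps24 that probe gave withdrawal changes of -0.18 and -0.33, and its other probes -0.39, -0.38 and 0.02 in scrambled and -0.35, -0.59 and -0.40 in sponge cells. The counts above and below the median member depended on single arrays. In scrambled cells the count above was 4 when either sponge array with IL-7 or either scrambled array without it was left out, 5 without either sponge array without IL-7, 7 without scrambled with IL-7 replicate 1 and 11 without its replicate 2. The count below there was 9 and 8 without scrambled without IL-7 replicates 1 and 2. In sponge cells the count above was 9 without either scrambled array with IL-7, 1 without sponge without IL-7 replicate 2 and 2 without any of the other 5 arrays. The count below there was 6 and 7 without sponge with IL-7 replicates 1 and 2, and 7 without either sponge array without IL-7.

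Of the 8 paralogs, 5 were measured and 1 rose. Rpl3l replaces Rpl3 in ribosomes of heart and skeletal muscle. Rpl3l read 0.70 and 1.00 in scrambled and 0.70 and 0.89 in sponge cells with IL-7, and 2.01 and 2.05, then 1.85 and 1.74, without. It rose by 1.18 (SE 0.13, adjusted p = 0.000885), which is 2.27-fold, and by 1.00 (SE 0.13, adjusted p = 0.00557), which is 2.00-fold, under all 6 scalings. Its parent Rpl3 read 8.26 and 8.37 in scrambled and 8.30 and 8.41 in sponge cells with IL-7, and 7.16 and 7.16, then 7.45 and 7.46, without. The genes thus moved in opposite directions in both constructs, with no overlap of arrays. Each is represented by a probe of 60 bases, and the probes meet on a stretch of 27 bases, 20 of them identical and 7 different, and cross-hybridization between them was not tested. The stretches are shown because the pair moves in opposite directions, with the differing bases in capitals, as bases 1 to 27 of the Rpl3 probe (chr15:79908489-79908772 on mm9, listed in descending order) and bases 34 to 60 of the Rpl3l probe (chr17:24872413-24872681 on mm9, in ascending order).
Rpl3: actctTTgTaagtccTtGctggtCcaG
Rpl3l: actctGAgAaagtccCtTctggtGcaC

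The other 4 measured paralogs had changes below 0, as their parents did. Rpl22l1, the close relative of Rpl22, read 6.48 and 6.55 in scrambled and 6.55 and 6.60 in sponge cells with IL-7, and 5.74 and 5.72, then 5.52 and 5.42, without. Its changes were -0.79 (SE 0.08, adjusted p = 0.000706) and -1.11 (SE 0.08, adjusted p = 0.0021), and those of Rpl22, which is needed for the development of alpha beta T cells, were -0.56 and -0.73 (adjusted p = 0.00312 and 0.00487), with -0.13 and -0.43 at a dimmer probe. Rpl36al had -0.34 and -0.51 (adjusted p = 0.012 and 0.00815), and after quantile normalization 0.08 in scrambled cells. Rps27l, a p53 target, had -0.46 and -0.47 (adjusted p = 0.0133 and 0.0269), so it fell in scrambled cells, where Rps27 did not pass the test. The difference between Rps27l and Rps27 was not tested. Rpl7l1 had -0.51 (adjusted p = 0.0143) and -0.30 (SE 0.12, adjusted p = 0.12), beside Rpl7 with -0.30 and -0.46 (adjusted p = 0.0315 and 0.0166). The parents of the unmeasured paralogs also fell: Rpl10 had -0.62 and -0.52, and Rps4x -0.61 and -0.73.

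**Figure D4:**
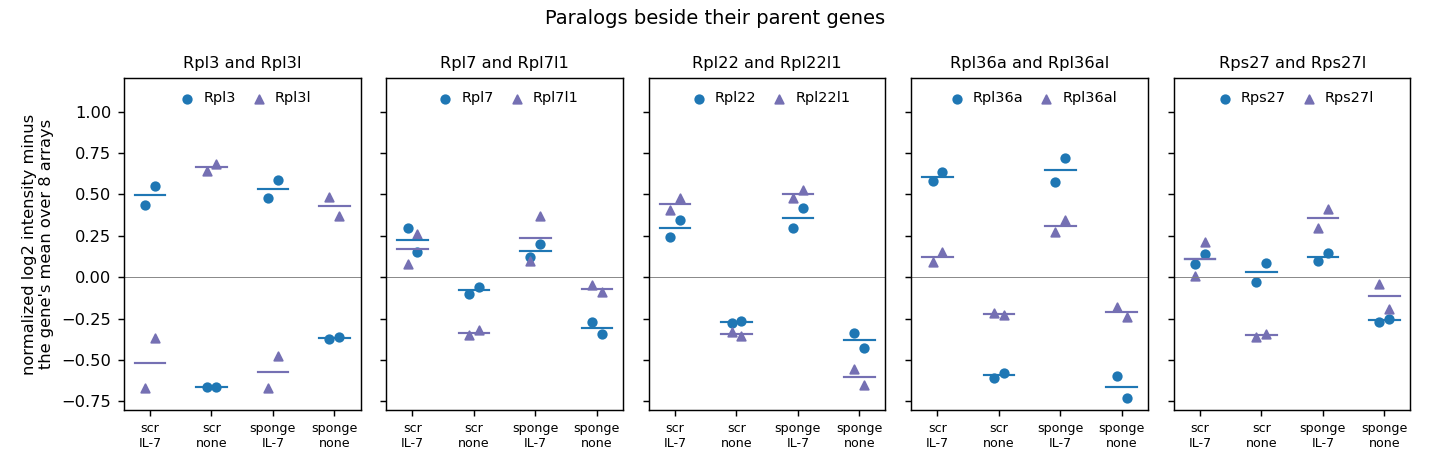
Normalized log2 intensity minus the gene's own mean over the 8 arrays for 5 measured paralogs (triangles) and their parent genes (circles), 2 arrays per group with the group mean as a line. Rpl3l and Rpl3 move in opposite directions when IL-7 is withdrawn, and the other paralogs move down as their parents do.

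Several probes of a gene gave the same account for most members. Of the 57 members with more than 1 measured probe, all probes had the same sign in 54 for scrambled and 57 for sponge cells, with a median range over the probes of a gene of 0.12 and 0.11. The exceptions in scrambled cells were Rpl6, Rps15a and Rps24, each with 1 dim probe above 0 (0.07, 0.28 and 0.02) beside brighter ones below 0. The dimmest of 3 probes of Rps27a lay near the lowest signal counted as above background, so no change is given for it, and the other 2 gave -0.42 and -0.48. Of the 186 measured probes, 162 were called lower in scrambled and 174 in sponge cells. The share of all kept probes called lower was not counted, and probes of 1 gene are not separate members.

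For the sponge effect few members passed the test. With IL-7, 0 of 83 members passed the test in limma in either direction, against 0.235% of all genes higher and 0.591% lower, a share at which 0 of 83 is no result about the members, and 2 were higher and 0 lower at an unadjusted p under 0.05. The median change was 0.00, and 42 of 83 changes were below 0. Rps19bp1 came nearest: it read 3.48 and 3.64 in scrambled and 4.07 and 4.15 in sponge cells, with no overlap and a change of 0.56 (SE 0.10, adjusted p = 0.0733). With normexp background correction, and with a filter for signal on all 8 arrays, 1 member passed.

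Without IL-7, sponge cells had 2 members higher and 5 lower than scrambled cells, against 16.5% and 13.6% of all genes. The median change of the members was -0.12 and that of all genes -0.03. Higher were Rps19bp1, with 3.28 and 3.35 in scrambled and 3.82 and 3.68 in sponge cells (change 0.44, SE 0.10, adjusted p = 0.0194), and Rpl3 (change 0.29, SE 0.08, adjusted p = 0.0402). The second probe of Rpl3 gave 0.16 and did not pass. Lower were Rpl12 (-0.45, SE 0.09, adjusted p = 0.0138), Rps3 at the mRNA entry channel (-0.33, adjusted p = 0.0326), Rps28 (-0.31, adjusted p = 0.0231), Rps27 (-0.29, adjusted p = 0.0392) and Rps10 (-0.28, adjusted p = 0.0344). Their other probes gave -0.39 for Rpl12, -0.28 and 0.01 for Rps3, -0.30 for Rps28, -0.28, -0.25 and -0.23 for Rps27, and -0.23 for Rps10. Of these, the probe of Rpl12 and that of Rps27 at -0.28 passed the test in the fit of every probe, and the rest did not. The 5 falls are no larger than 1.37-fold, and the direction of the group depended on scaling: with the spike-ins 7 members were higher and 0 lower, the median was 0.14, and the median of all genes moved to 0.23. Over all genes the spike-ins called 5946 higher and 977 lower. Rps19bp1 was higher under all 6 scalings, and no member was lower under all 6. Without single arrays the 5 lower calls became 0 when scrambled without IL-7 replicate 2 or either sponge array without IL-7 was left out, 1 without scrambled without IL-7 replicate 1, and 2 without either sponge array with IL-7. The 2 higher calls became 1 without either sponge array with IL-7 or sponge without IL-7 replicate 2, and 0 without either scrambled array without IL-7 or sponge without IL-7 replicate 1. Relative to the median member, 6 were higher (Rps19bp1, Rpl3, Rpl7l1, Rps2, Rpl14 and Rps27l) and 1 lower (Rpl12), against 22.8% and 9.28% of all genes. The 6 became 4 without either sponge array with IL-7, 1 without scrambled without IL-7 replicate 2 and 2 without any other array without IL-7, and Rpl12 was lost without scrambled without IL-7 replicate 2 or either sponge array without IL-7.

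The fall on withdrawal was not shown to differ between the constructs for any member. In the test of the difference, 0 of 83 passed in limma, against 3.91% of all genes higher and 0.76% lower, and 0 were higher and 5 lower at an unadjusted p under 0.05. The smallest adjusted p was that of Rpl12 (0.142), whose fall was 0.40 log2 larger in sponge cells. The median difference was -0.12 with the 75th percentile and 0.23 with the spike-ins, where the median of all genes moved from -0.04 to 0.30, so its sign depended on the scaling. Of the calls over all genes for this difference, 16.3% were lower with the 75th percentile, 26.8% after quantile normalization and 2.05% with the spike-ins.

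The members were set beside other genes of translation and ribosome production. Fau and Rack1 encode ribosomal proteins under other names. Fau had changes of -0.17 (adjusted p = 0.105) and -0.27 (adjusted p = 0.0463), and Rack1 of -0.32 and -0.54 (adjusted p = 0.0174 and 0.00769). They belong to a list of 24 genes with elongation and initiation factors and other known TOP messages, of which 20 fell in scrambled cells (median -0.59) and 21 in sponge cells (median -0.52), and 0 rose, against the 27.7% and 15.2% of all genes that fell. With the spike-ins 20 and 5 fell (sponge median -0.28), against 6612 and 860 of 21311 genes. After quantile normalization 11 and 6 fell, against 4959 and 1961 of all genes. Nap1l1, a histone chaperone, fell by 1.78 and 0.93 (adjusted p = 0.00026 and 0.004), Hnrnpa1 by 1.11 and 1.04 (adjusted p = 0.000379 and 0.00245), and Eef1b2, an exchange factor of elongation factor 1, had -1.10 and -0.98 (adjusted p = 0.000607 and 0.00416). Eef2 had -0.12 and -0.24 and did not pass the test in either construct (adjusted p = 0.538 and 0.307).

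Proteins of the mitochondrial ribosome, which are made from nuclear genes without a known TOP sequence, fell in part. Of 76, 53 fell in scrambled (median -0.36) and 31 in sponge cells (median -0.30), and 0 rose, beside the same shares of all genes. With the spike-ins 53 and 2 fell (sponge median -0.07), against 6612 and 860 of 21311 genes. After quantile normalization 36 and 18 fell, against 4959 and 1961 of all genes. Mrps22 had -1.02 in scrambled cells (adjusted p = 0.00039) and Mrpl23 -0.68 in sponge cells (adjusted p = 0.00503). Of 36 ribosome assembly factors, 16 fell and 1 rose in scrambled cells (median -0.22), against 27.7% and 19.2% of all genes. In sponge cells 14 fell and 0 rose (median -0.28), against 15.2% and 6.97% of all genes. With the spike-ins 17 fell in scrambled and 0 in sponge cells (sponge median -0.05), and after quantile normalization 14 and 11. The counts of all genes that fell under these scalings are those just given. Nop58, a core protein of box C/D small nucleolar particles, fell by 0.88 and 0.53 (adjusted p = 0.000653 and 0.0105). Of 21 regulators of mTORC1, TOP messages and S6, 3 rose and 4 fell in scrambled cells and 0 rose and 4 fell in sponge cells, with a median of -0.04 in both, which is near or under the shares of all genes (19.2% higher and 27.7% lower, then 6.97% and 15.2%). The counts and medians of these regulators depended on scaling, and so did the counts of all genes. With the spike-ins 2 rose and 0 fell in sponge cells (median 0.20), against 2593 and 860 of 21311 genes. After quantile normalization 7 rose and 3 fell in scrambled cells (median 0.17), against 5255 and 4959 of all genes. In sponge cells 5 rose and 2 fell after it (median 0.01), against 2086 and 1961 of all genes. Eif4e, the cap-binding protein, fell by 0.84 and 0.42 (adjusted p = 0.000947 and 0.0249), Rheb, the activator of mTORC1, by 0.74 and 0.54 (adjusted p = 0.00211 and 0.0161), and Larp1 had -0.22 and -0.47 (adjusted p = 0.166 and 0.0336). These genes show only the falls of the list, since the 3 regulators that rose in scrambled cells are counted but not reported by name.

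**Figure D5:**
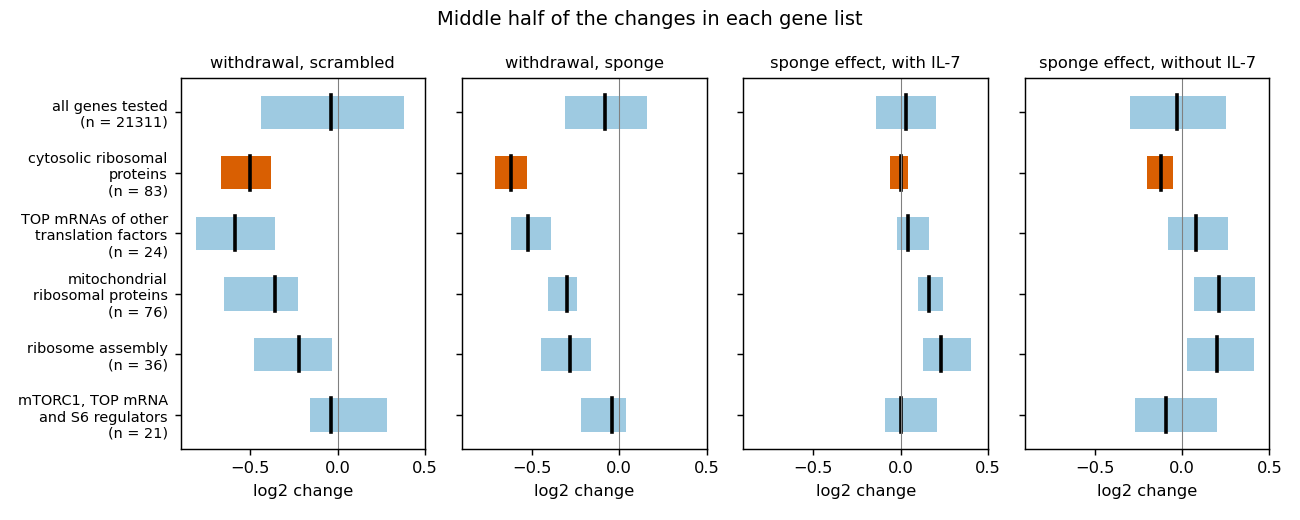
Quartiles (bars) and median (black line) of the log2 changes of all genes tested, the cytosolic ribosomal protein genes and 4 other lists, in 4 comparisons. After withdrawal the bar of the cytosolic ribosomal proteins lies wholly below 0 and is narrower than that of all genes, and in the 2 sponge comparisons it lies nearer 0 than those of the mitochondrial ribosomal proteins and the assembly factors.

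In sponge cells without IL-7, 3 of the 4 other lists had medians above 0, while the members and the regulator list (median -0.09) lay below it. Of the mitochondrial ribosomal proteins 29 were higher and 0 lower than in scrambled cells (median 0.21), of the assembly factors 11 were higher and 1 lower (median 0.20), and of the other TOP messages 5 were higher and 0 lower (median 0.08, but -0.04 after quantile normalization). Of all genes tested, 16.5% were higher and 13.6% lower, and the 5 of 24 other TOP messages that were higher lie near that share. After quantile normalization the counts of the 3 lists were 26 and 4, 12 and 4, and 3 and 1, against 3583 and 3871 of 21311 genes. With the spike-ins the medians of the 3 lists and of the members were all above 0, as was that of all genes (0.23). Nap1l1 was 0.99 higher (adjusted p = 0.0015), Mrps25 1.28 higher (adjusted p = 0.00116) and Nop58 0.75 higher (adjusted p = 0.00208). The members stood at 2 higher and 5 lower in the same comparison. With IL-7, the medians were 0.16 for mitochondrial ribosomal proteins and 0.23 for assembly factors, with 0 called in either list. Ddit4, an inhibitor of mTORC1, was the 1 gene of the regulator list called there, at -1.07 (SE 0.09, adjusted p = 0.01), and it was also lower without IL-7 (-0.81, adjusted p = 0.00189).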

How the data were processed

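The members, the gene lists and the rule for named genes were chosen with earlier results of these data known. The authors hybridised Cy3-labelled total RNA of 8 cultures to 1-colour Agilent arrays and extracted signals with Agilent Feature Extraction (version 10.7.1.1 per the submitters' processing notes, 10.7.3.1 per the file headers). The deposited processed signal is an intensity on a linear scale, background subtracted per the file headers. The deposited value table is also an intensity, with equal distributions in all arrays. Its software is not given in the sources used here.

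Per array, 50.6% to 56.6% of 59305 spots were well above background, 128 to 277 outlier spots were removed and 0 spots were saturated. Each array's log2 signals were lowered by their 75th percentile, and replicate spots were averaged. A probe was retained where some group had it well above background on each of its arrays (30952 probes), and the brightest kept probe represented its gene (21311 genes, 83 of 86 members). The number of arrays limits the precision. The 4 group means were fitted with limma 3.58.1 in R 4.3.3 (4 residual and 1.97 prior degrees of freedom), two-sided, called at an adjusted p under 0.05, for 5 contrasts. The fit was tested on simulated data in which 200 of 21306 genes changed. The smallest size tried, 0.5 log2, was recovered in no contrast, and the larger ones less often for the difference than for the others. A count of 0 thus does not show that small changes are absent. On withdrawal far more genes were called (5908 lower in scrambled and 3231 in sponge cells), so the adjustment was less strict there. The simulation therefore does not describe recovery in the withdrawal contrasts. In the deviations from group means, replicates with the same number correlated at 0.0178 to 0.131, so the pairing rests on the study's description of 2 independent experiments. RefSeq names came by accession for 27235 probes, by symbol for 3581 and by synonym for 565, and 24300 kept the file's name. Named genes were a fixed set of members, the 6 largest called changes in each direction per contrast with separate arrays, up to 3 called genes of smallest p per list, and members whose probes disagreed. Fau, Rack1, Eef1b2, Eef2, Larp1, Rps12, Rps24, Rpl14, Rpl19 and the least changed members were named after their values were seen. Some genes of the lists are counted but not reported by name here. Alternatives were other scalings, background, filter, probe choice, replicate block, arrays in the fit and each array left out. The spike-in scaling, on 7 of 10 spike-ins, and the counts against the median member were added after seeing the data.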

Additional observations from a re-analysis of the deposited data

Results flagged for a closer look

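No member had a withdrawal effect that differed between the constructs by the interaction test, and groups of 2 arrays are too small for a test of single arrays that stand apart. Among the other genes named, 2 passed the interaction test in limma. Nap1l1 fell less in sponge than in scrambled cells, with a difference of 0.85 (SE 0.14, adjusted p = 0.0348). Its values were 6.82 and 6.85 in scrambled and 6.91 and 7.03 in sponge cells with IL-7, and 5.11 and 4.99, then 6.12 and 5.95, without. Mrps25, a mitochondrial ribosomal protein, differed by 0.75 in the same direction (SE 0.14, adjusted p = 0.0416). It read 3.67 and 3.81 in scrambled and 4.24 and 4.30 in sponge cells with IL-7, and 2.64 and 2.51, then 3.92 and 3.80, without.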

How the results depend on the processing

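The direction of the withdrawal medians was the same under all alternatives run. Median change of the members on withdrawal in scrambled cells was -0.57 with median scaling, -0.61 with spike-ins, -0.14 with quantile normalization and the deposited table. In sponge cells it was -0.38 with spike-ins and -0.21 with quantile normalization and the table. Members called lower in scrambled cells were 29 (quantile, table) and 162 of 186 (every probe). In sponge cells they were 25 (quantile, table), 27 (spike-ins) and 174 of 186 (every probe). Of the 21311 genes tested, 4959 were lower in scrambled cells with quantile and 4961 with the table. In sponge cells 1961 were lower with quantile, 1956 with the table and 860 with spike-ins. For the sponge with IL-7 the median was -0.08 with spike-ins, and 1 member was higher with normexp and with the filter on all 8 arrays. For the sponge without IL-7 the median was -0.03 with median scaling and reversed to 0.14 with spike-ins. Its higher and lower counts were 1 and 13 (quantile), 1 and 12 (table), 7 and 0 (spike-ins), 0 and 1 (no filter) and 4 and 11 (every probe). There was 1 higher (mean of probes), and 0 lower (median scaling), 9 lower (all 8 arrays) and 2 lower (only the arrays compared). Of 21311 genes, 3583 were higher and 3871 lower with quantile, and 3585 and 3861 with the table. The 13 and 12 lower members lie near these shares. With spike-ins 5946 and 977 genes were higher and lower, and with median scaling 3810 and 1660. Counts of all genes under the other alternatives are not given here. The difference had a median of -0.04 with median scaling, -0.07 with quantile and the table, and reversed to 0.23 with spike-ins, with 1 lower (quantile, table) or 1 higher (spike-ins). With the replicate block, which pairs the experiments, 74 members were lower in scrambled and 77 in sponge cells, and no count over the members moved by more than 1.5 times other than members above the median member in scrambled cells (7). Relative to the median member, above and below in scrambled cells were 4 and 10 (no filter) and 4 and 6 (only the arrays compared). In sponge cells 2 were above with quantile, the table and no filter. For the sponge without IL-7, 4 were below with quantile and the table, 3 above with normexp, 2 above and 0 below with no filter, 2 below with all 8 arrays, and 10 above and 2 below with the mean of probes.

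Leaving out each array in turn, members lower on withdrawal were 53 to 73 in scrambled and 44 to 81 in sponge cells (44 without sponge without IL-7 replicate 2, 48 without sponge with IL-7 replicate 2), with medians of -0.53 to -0.48 and -0.64 to -0.58 and 1 higher each. The sponge with IL-7 had 0 to 1 higher and 0 lower (median -0.04 to 0.02), the sponge without IL-7 0 to 2 higher and 0 to 5 lower (median -0.17 to -0.09), and the difference 0 and 0 (median -0.15 to -0.08). Relative to the median member, above and below ranged over 4 to 11 and 8 to 15 in scrambled cells, 1 to 9 and 6 to 11 in sponge cells, and 1 to 6 and 0 to 1 for the sponge without IL-7. Signs that reversed in quantile normalization and the table were those of Rpl13a (0.12 in both), Rpl36al (0.08 in both), Rps27 (0.19 and 0.20) and Rps14 (0.04 in both) in scrambled cells, and Rps14 (0.03 in both) in sponge cells. Of 104 changes of named genes, 56 kept their direction and their side of the threshold under all alternatives. The causes were not tested.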

Other observations

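Rps2, with the largest fall in scrambled cells by the brightest probe of each gene, and Rpl3l, the only measured member that rose, are neighbours on chromosome 17 in the RefSeq order (GRCm38.p6), with Ndufb10 the only protein-coding gene between them. This was looked up after their values were seen. Ndufb10, a subunit of respiratory complex I, fell by 0.47 in scrambled (adjusted p = 0.00481) and 0.38 in sponge cells (adjusted p = 0.0226). Msrb1, on the other side of Rpl3l, had -0.11 (adjusted p = 0.247) and -0.06 (adjusted p = 0.608), and Tbl3 and Rnf151, on the other side of Rps2, had -0.60 (adjusted p = 0.00201) and -0.33 (adjusted p = 0.0387) in scrambled cells, and -0.21 (adjusted p = 0.124) and -0.05 (adjusted p = 0.772) in sponge cells. Rpl3l was thus the 1 gene of these 6 with a change above 0 on withdrawal.

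Within a gene, the brightest probe fell less than the second brightest in 34 of 57 members in scrambled and 32 of 57 in sponge cells. Vim, listed among the TOP messages, was 0.77 higher in sponge than in scrambled cells without IL-7 (adjusted p = 0.00318), and Ybx1 0.51 higher (adjusted p = 0.0105).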
